A study of Homo sapiens with 9 samples.

Results

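NF-kB is a family of dimeric transcription factors that is switched on by cytokines and microbial products, and 10 genes of its core were followed in A549, an established lung adenocarcinoma cell line. They were picked by gene symbol from the 58735 genes of the count table, with earlier results of these data known. NFKB1, NFKB2, RELA and RELB encode subunits of the factor. NFKBIA, NFKBIE and TNFAIP3 encode its feedback inhibitors, and BIRC3, TRAF1 and IRAK2 encode signaling proteins that act between receptors and the kinase that releases it. RNA-seq was performed on 9 libraries from A549 transfected with plasmids, 3 libraries in each of 3 groups. The control group received the plasmid that the treatment labels write as PC3.1, PC3.2 or PC3.3, and the other groups were described as overexpressing LINC00996 or AP001189.3, which are long non-coding RNAs. All 3 groups were thus cells of 1 line after transfection, and no untransfected cells were analysed here. The labels do not say whether replicates were separate cultures, so p-values measure the spread between these libraries, which may be technical.

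In resting cells, NF-kB dimers are held in the cytoplasm by IkB proteins, among them the products of NFKBIA and NFKBIE. Signals from TNF and interleukin-1 receptors pass through adaptors and ubiquitin ligases to the IkB kinase, and the degradation of IkB lets dimers such as p50 with RelA enter the nucleus. A slower branch processes the NFKB2 product p100 to p52, which pairs with RelB. Many genes of the system, including those of its inhibitors, are themselves targets of NF-kB, so that their RNA levels are commonly read as its output.

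The control libraries held 16114345 to 17390680 counts, the LINC00996 libraries 15272450 to 18125447 and the AP001189.3 libraries 15600778 to 17383842. LINC00996 had 4373 to 5952 counts with its own plasmid and at most 9 in any other library, and AP001189.3 had 1660 to 2378 with its own plasmid and at most 2 elsewhere. All 9 markers of a lung epithelial line averaged 1 CPM or more (counts scaled to library size), while 1 of 6 leukocyte markers (CD14), 2 of 4 endothelial markers (PECAM1 and CDH5) and 1 of 5 fibroblast markers (COL1A1) did. LINC00996 replicate 1 stood apart from the other replicates of its group, with a chi-square value per gene of 22.4 and 33.3 against them, where the other replicate pairs of all groups lay between 2.27 and 7.32. Its levels relative to the mean library rose with GC content (Spearman's rho across 16552 genes, which are not independent, 0.427), while the rho was -0.24 and -0.42 in the other LINC00996 replicates.

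The bases before the start of a gene are where NF-kB is known to act on several of these genes, and the windows that hold its consensus are shown here for that reason. RefSeq promoter windows (GRCh38.p14, from 250 bases before the annotated start to 50 after it) were held for 8 of the 10 genes, all but RELB and NFKBIE. A 10-base kappa-B consensus, GGGRNWYYCC, was searched on both strands with no mismatch allowed. In it, R is A or G, W is A or T, Y is C or T and N is any base. It was held by 4 of the 8 windows, against 5.91% of all windows (2075 of 35116). The 250 bases before the start of these 4 genes are printed 5′ to 3′ on the strand of the gene, with matches in capitals. They are chr4:102501109-102501358 on the plus strand for NFKB1, chr14:35404750-35404999 on the minus strand for NFKBIA, chr6:137867009-137867258 on the plus strand for TNFAIP3 and chr11:102317234-102317483 on the plus strand for BIRC3.
NFKB1: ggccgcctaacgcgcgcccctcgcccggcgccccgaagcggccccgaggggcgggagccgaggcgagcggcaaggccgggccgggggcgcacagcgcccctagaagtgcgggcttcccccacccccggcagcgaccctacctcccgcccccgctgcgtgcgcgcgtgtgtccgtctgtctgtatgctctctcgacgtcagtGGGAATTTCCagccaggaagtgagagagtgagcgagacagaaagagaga
NFKBIA: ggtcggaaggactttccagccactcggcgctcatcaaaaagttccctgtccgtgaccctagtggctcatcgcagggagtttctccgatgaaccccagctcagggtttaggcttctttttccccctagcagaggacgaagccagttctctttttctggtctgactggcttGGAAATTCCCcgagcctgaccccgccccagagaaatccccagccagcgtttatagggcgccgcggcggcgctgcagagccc
TNFAIP3: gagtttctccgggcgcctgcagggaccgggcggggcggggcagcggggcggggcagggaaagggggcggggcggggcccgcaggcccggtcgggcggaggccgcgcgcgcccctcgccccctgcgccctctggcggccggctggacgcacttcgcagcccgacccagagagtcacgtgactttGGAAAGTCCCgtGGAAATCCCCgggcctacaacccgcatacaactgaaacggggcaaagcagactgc
BIRC3: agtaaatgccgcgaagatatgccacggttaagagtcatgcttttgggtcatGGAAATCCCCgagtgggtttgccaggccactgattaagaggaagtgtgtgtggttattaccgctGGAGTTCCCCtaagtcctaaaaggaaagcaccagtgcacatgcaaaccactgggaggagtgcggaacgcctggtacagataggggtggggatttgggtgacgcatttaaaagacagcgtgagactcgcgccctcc

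Counted with the start base as 0, the match of NFKB1 lay at -49 to -40 and read along the gene's own strand. That of NFKBIA lay at -81 to -72 on the opposite strand. TNFAIP3 had a pair of matches, at -67 to -58 and -55 to -46, and BIRC3 had a pair at -199 to -190 and -135 to -126, all on the opposite strand. None was found in the windows of NFKB2, RELA, TRAF1 and IRAK2. The RefSeq start used for RELA lies outside the gene as the count table annotates it, so the bases before the start in that table were not searched. Of the other subunits and IkB genes, 3 of 5 windows held a match. These were REL, with 2 overlapping matches on opposite strands at -47 to -37, NFKBIZ at -223 to -214 and BCL3 at 2 to 11. A match shows that these letters are present and does not show binding. A window without a match may still hold a kappa-B site that departs from the consensus, because no mismatch was allowed.

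**Figure D1:**
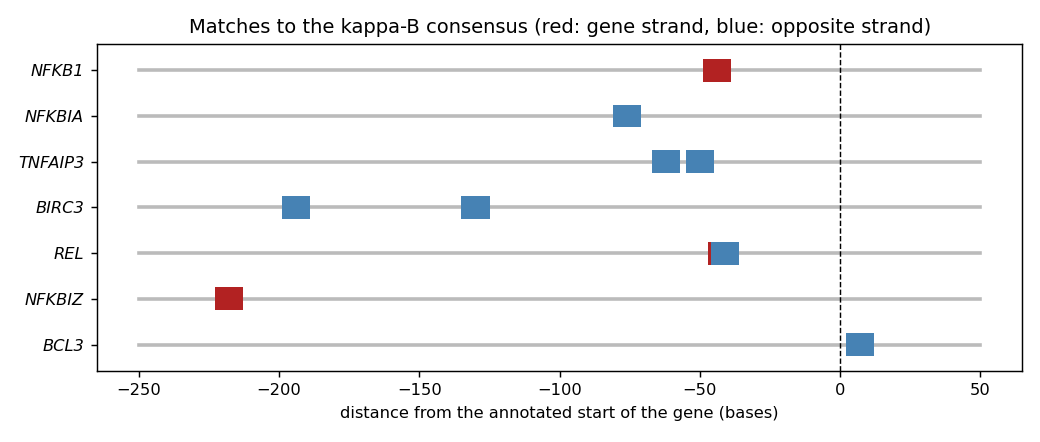
Position of each match to the kappa-B consensus in the promoter windows of 4 of the 10 genes and of REL, NFKBIZ and BCL3, in bases from the annotated start (dashed line). Gray lines are the windows searched, red boxes are matches on the gene strand and blue boxes on the opposite strand, and the matches of NFKB1, NFKBIA and TNFAIP3 lie within 81 bases of the start.

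Per deposited gene length, BIRC3 and NFKBIA were the most abundant of the 10 genes in control cells and TRAF1 the least. Levels are given here as mean RPKM (reads per kilobase, scaled to library size) computed from the counts and that length. For each of the 10 genes it equals all annotated exonic bases, which need not be the length of the transcripts present. In the control group, BIRC3 stood at 134 RPKM and NFKBIA at 123, and the ranges of these neighbours overlapped. NFKB2 (77.8 RPKM), TNFAIP3 (77.6) and IRAK2 (72.2) followed, each overlapping the next in its range. RELA (36.1), RELB (28.3), NFKB1 (17.7), NFKBIE (10.9) and TRAF1 (6.36) came next, with no overlap between neighbours.

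The order at the top differed between the groups. With LINC00996, NFKBIA led at 87.2 RPKM, above BIRC3 at 49.6, with no overlap of their ranges, and BIRC3 overlapped NFKB2 at 41.0. IRAK2 (35.5) then stood above TNFAIP3 (30.2), and RELB (20.9) and RELA (20.8) were not separated. With AP001189.3, NFKBIA led at 167 RPKM and BIRC3 followed at 137, again without overlap. NFKB1, NFKBIE and TRAF1 kept the last 3 places in all 3 groups.

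All 10 genes were lower in the cells with the LINC00996 plasmid than in the control cells, to between 34.1% (TRAF1) and 73.7% (RELB) of the control mean. This comparison asked what overexpression of LINC00996 did to the transcriptome. Of all 16097 genes tested, 11.6% were called lower and 10.7% higher (22.3% in all), where called means an adjusted p under 0.05 by edgeR. With library size alone as scaling, more genes were higher (2006) than lower (1669), and all 10 genes were still called lower. For each of the 10 genes the values of both groups did not overlap, which held for 40.4% of all genes tested. The median log2 fold change was -0.86 for the 10 genes and 0.01 for all genes. In bulk RNA, fewer cells with a transcript and less of it per cell cannot be told apart. Over the same libraries, the summed level of the 9 epithelial markers was 13567 to 13685 CPM in the control libraries and 17646 to 19141 CPM with LINC00996, while the leukocyte markers summed to 10.1 to 11.6 and 11.4 to 14.1 CPM. Most of the higher epithelial sum lay in ALDH1A1 (mean of 2928 CPM in control cells and 5827 CPM with LINC00996), KRT8 (3988 and 4917 CPM, adjusted p = 0.096) and AKR1B10 (717 and 1371 CPM), while CDH1 fell to 53.9% and KRT19 to 75.8% of the control mean (edgeR adjusted p = 2.9e-05 and 0.026). The endothelial markers summed to 11.6 to 13.1 CPM in the control group and 5.26 to 6.49 with LINC00996, and the fibroblast markers to 20.6 to 23.2 and 12.2 to 15.4. The share of counts on mitochondrially encoded genes was 6.68 to 7.18% with LINC00996, above the 5.26 to 5.66% of the control group. No marker of these lists was at 0 in every library, and the part of these shifts in the result was not tested.

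**Figure D2:**
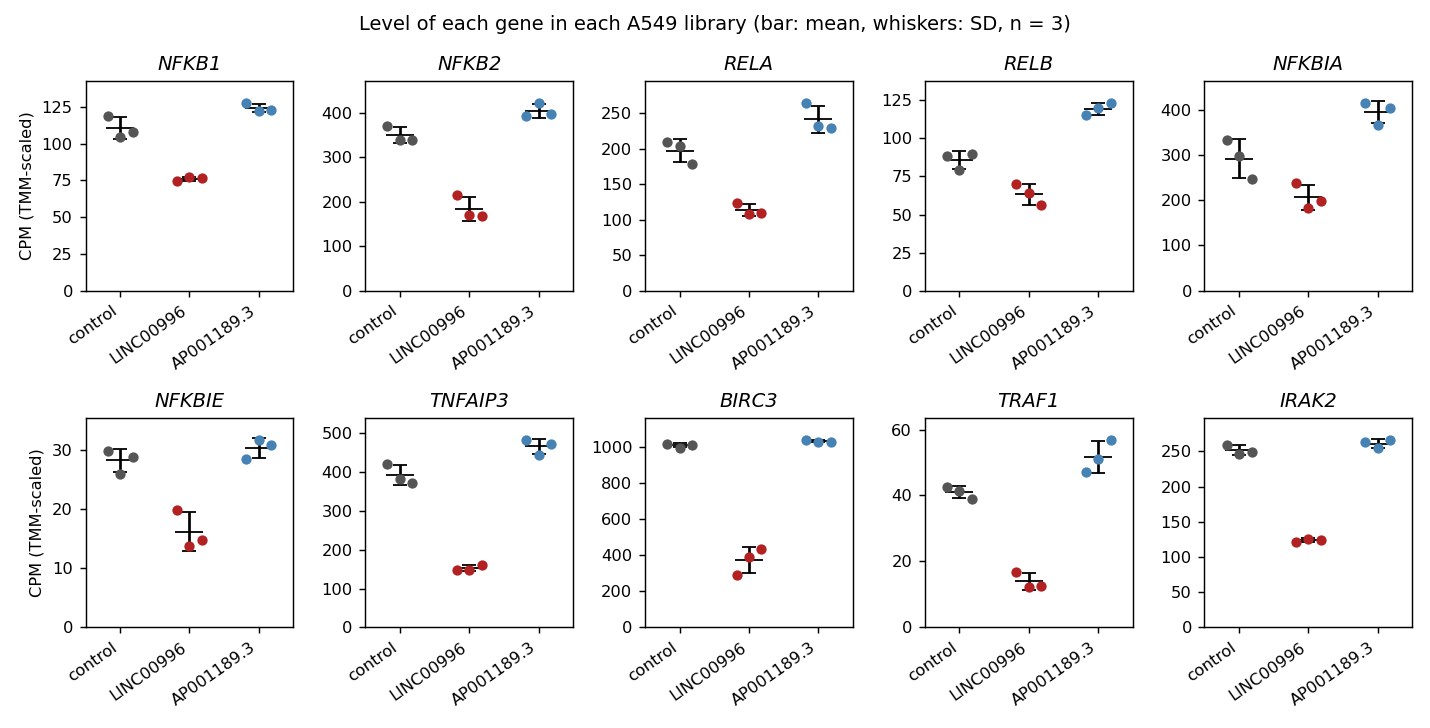
Level of each of the 10 genes in every library, in CPM on axes that start at 0, for the control (gray), LINC00996 (red) and AP001189.3 (blue) groups; the horizontal bar is the mean and the whiskers the SD of 3 libraries. In all 10 panels the LINC00996 points lie below every control point and every AP001189.3 point.

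The subunits were examined first. NFKB1 (ENSG00000109320, chromosome 4 of GRCh38, 102501329 to 102617302), which encodes p105 and its product p50, had 119, 105 and 108 CPM in control replicates 1 to 3 and 74.8, 77.4 and 76.5 CPM with LINC00996. The LINC00996 values lay close together, well below the lowest control value. Its log2 fold change was -0.54 (SE 0.09, edgeR adjusted p = 0.0017), the smallest of the subunits apart from RELB. NFKB2 (ENSG00000077150, chromosome 10, 102394110 to 102402529), which encodes p100, had 370.1, 338 and 339 CPM in the control libraries and 215, 169 and 168 CPM with LINC00996. All LINC00996 libraries were low, and replicate 1 was the highest of them. The log2 fold change was -0.92 (SE 0.11, edgeR adjusted p = 0.00013) and -1.05 without that replicate.

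RELA (ENSG00000173039, chromosome 11, 65653596 to 65663094), which encodes the transactivating subunit p65, had 209, 204 and 179 CPM in the control libraries and 124, 108 and 109 CPM with LINC00996. The groups were far apart relative to their spread, and the log2 fold change was -0.80 (SE 0.10, edgeR adjusted p = 0.00019). RELB (ENSG00000104856, chromosome 19, 45001430 to 45038198), the partner of p52, had 88.6, 79.2 and 89.9 CPM in the control libraries and 69.9, 64.2 and 55.9 CPM with LINC00996. Its groups did not overlap, but they lay closer together than those of the other subunits. Its log2 fold change of -0.44 (SE 0.11, edgeR adjusted p = 0.013) was the smallest of the 10 in the full fit, and the adjusted p was 0.063 without control replicate 1 and 0.067 without control replicate 3. Without control replicate 1, NFKBIA had the smallest, at -0.40. Of the exonic bases of RELA, 0.16% overlap another annotated gene, and no annotated pseudogene carries the name of any of the 10 genes.

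Summed over these 4 subunits, the level was 160 ± 7.94 RPKM (SD, n = 3) in the control group and 94.9 ± 9.43 RPKM (SD, n = 3) with LINC00996, and the ranges did not overlap.

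The inhibitors fell by unequal amounts. NFKBIA (ENSG00000100906, chromosome 14, 35401511 to 35404749), which encodes IkB-alpha, had 332, 297 and 247 CPM in the control libraries and 238, 184 and 199 CPM with LINC00996. The lowest control library stood just above the highest LINC00996 library. The log2 fold change was -0.50 (SE 0.13, edgeR adjusted p = 0.014), and the call was lost without control replicate 1 (adjusted p = 0.081), control replicate 2 (0.061) or LINC00996 replicate 2 (0.067). NFKBIE (ENSG00000146232, chromosome 6, 44258166 to 44265788), which encodes IkB-epsilon, had 29.9, 26.0 and 28.8 CPM in the control libraries and 19.9, 13.8 and 14.7 CPM with LINC00996. LINC00996 replicate 1 was again the highest of its group, and the log2 fold change was -0.80 (SE 0.15, edgeR adjusted p = 0.0025). TNFAIP3 (ENSG00000118503, chromosome 6, 137867188 to 137883312) encodes A20, a ubiquitin-editing enzyme that shuts off signaling from TNF and interleukin-1 receptors. It had 421, 382 and 373 CPM in the control libraries and 148, 148 and 162 CPM with LINC00996, so that every LINC00996 library was under the lowest control library by a wide margin. The group mean was 38.9% of the control mean (edgeR adjusted p = 2.4e-06), and the log2 fold change stayed between -1.41 and -1.31 in all alternatives tried. Of its exonic bases, 1.88% overlap the gene AL357060.1.

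Among the signaling proteins, BIRC3 and TRAF1 had the largest falls of the 10 genes in the full fit, and IRAK2 fell less than TNFAIP3. BIRC3 (ENSG00000023445, chromosome 11, 102317450 to 102339403) encodes cIAP2, a ubiquitin ligase of TNF receptor complexes. It had 1017, 996.4 and 1013 CPM in the control libraries and 292, 392 and 434 CPM with LINC00996. The control libraries lay within a narrow band, and LINC00996 replicate 1 was the lowest of its group. The log2 fold change was -1.44 (SE 0.13, edgeR adjusted p = 1.5e-05) and -1.29 without that replicate. TNFAIP3 then fell further than BIRC3, as it stayed at -1.31 or lower in every alternative. TRAF1 (ENSG00000056558, chromosome 9, 120902393 to 120929173), an adaptor that binds cIAP proteins, had 42.6, 41.4 and 38.9 CPM in the control libraries and 16.9, 12.4 and 12.6 CPM with LINC00996. The groups were widely separated, and the log2 fold change of -1.55 (SE 0.14, edgeR adjusted p = 1.6e-05) was the largest of the 10 in size in the full fit. Without LINC00996 replicate 3, BIRC3 had the largest, at -1.56. IRAK2 (ENSG00000134070, chromosome 3, 10164865 to 10243743), a kinase-like protein of the interleukin-1 and Toll-like receptor complex, had 259.5, 246 and 249 CPM in the control libraries and 121, 126 and 124 CPM with LINC00996. The replicates of each group agreed closely, and the mean fell to 49.2% of the control mean (edgeR adjusted p = 9.1e-06).

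In LINC00996 replicate 1, whose levels rose with GC content, NFKB2 was the highest and BIRC3 the lowest of the group, and the GC content of their longest transcripts was 62.4% and 34.8%. With an offset for GC content in each library, the log2 fold changes were -0.98 for NFKB2 and -1.40 for BIRC3, and all 10 genes were called lower. The same 10 were called without LINC00996 replicate 1. Over all genes, 5975 were called with the GC offset and 5481 without that replicate, in place of 3588.

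The AP001189.3 plasmid came with small increases in 7 of the 10 genes, the largest in RELB and NFKBIA. When all 9 libraries shared 1 estimate of the spread, only RELB and NFKBIA were still called, and 437 of all genes in place of 3180. Of all 16023 genes tested, 11.4% were called higher and 8.49% lower in this comparison (19.8% in all), and the groups did not overlap in 35.2%. With library size alone as scaling, 1608 genes were higher and 1719 lower, and 6 of the 10 were called. The median log2 fold change was 0.23 for the 10 genes and 0.00 for all genes. The same 3 control libraries served here as in the comparison with LINC00996, so the comparisons are not independent. The 3 AP001189.3 libraries also differed from the control libraries in how levels related to GC content, with a rho of 0.204 to 0.353 against -0.277 to -0.004. The epithelial markers summed to 14408 to 14860 CPM with AP001189.3, above the control range. Of them, ALDH1A1 (mean of 2928 CPM in control cells and 3656 CPM with AP001189.3) and KRT8 (3988 and 4561 CPM) were called higher. AKR1C1 and AKR1C2 were called lower, each at 87.6% of the control mean (edgeR adjusted p = 0.0093 and 0.003). KRT18, KRT19, EPCAM, CDH1 and AKR1B10 did not pass. The endothelial markers summed to 7.28 to 9.57 CPM, below the control range, with PECAM1 at 57.3% of the control mean (edgeR adjusted p = 0.0007). The leukocyte sum (7.94 to 14.2 CPM), the fibroblast sum (18.8 to 22.1 CPM) and the mitochondrial share (5.32 to 5.52%) overlapped the control range, and the part of the shifts in the result was not tested.

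RELB rose the most in the full fit, with 115, 120.2 and 123 CPM in AP001189.3 replicates 1 to 3 against 79.2 to 89.9 CPM in the control group. Its values were well apart from the control values, and the log2 fold change was 0.47 (SE 0.06, edgeR adjusted p = 2.2e-06). It was the only one of the 7 called in all 14 alternatives. With the GC offset its log2 fold change was 0.26, below that of NFKBIA, which was 0.33 or more in every alternative. NFKBIA had 414, 368 and 403 CPM against 247 to 332 CPM. Its log2 fold change was 0.43 (SE 0.11, edgeR adjusted p = 0.027), and the call was lost without control replicate 2 (adjusted p = 0.055), AP001189.3 replicate 1 (0.15) or AP001189.3 replicate 3 (0.06).

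TRAF1 had 47.0, 51.1 and 56.8 CPM with AP001189.3, each above the highest control value of 42.6 CPM. This gave a log2 fold change of 0.33 (SE 0.08, edgeR adjusted p = 0.0025). RELA had 264, 232 and 229 CPM, with the lowest still above the highest control library at 209 CPM. The log2 fold change was 0.29 (SE 0.06, edgeR adjusted p = 0.002), and 0.19 with the GC offset. TNFAIP3 had 483, 446 and 473 CPM against at most 421 CPM in the control group, a log2 fold change of 0.25 (SE 0.05, edgeR adjusted p = 0.0011).

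NFKB2 had 391, 420.3 and 397 CPM with AP001189.3, and its lowest value was above the highest control value of 370.1 CPM. NFKB2 thus had a log2 fold change of 0.21 (SE 0.05, edgeR adjusted p = 0.0047), which was 0.03 (adjusted p = 0.71) with the GC offset. The call was also lost without control replicate 2 (adjusted p = 0.057) or AP001189.3 replicate 2 (0.064). NFKB1 had 127, 122 and 123 CPM, just above the highest control value of 119 CPM. Its log2 fold change of 0.17 (SE 0.06, edgeR adjusted p = 0.041) was called in 5 of 14 alternatives and missed the threshold under DESeq2 (adjusted p = 0.069) and without control replicate 2 or 3 or any of the AP001189.3 replicates.

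NFKBIE, BIRC3 and IRAK2 did not pass the test. NFKBIE had 28.5, 31.7 and 30.8 CPM with AP001189.3 and overlapped the control group, with a log2 fold change of 0.10 (95% interval -0.07 to 0.28). IRAK2 overlapped as well, at 263, 254 and 266 CPM, with 0.05 (95% interval -0.05 to 0.16). BIRC3 had 1037, 1027 and 1028 CPM, all above the highest control value of 1017 CPM, and yet its log2 fold change was only 0.03 (95% interval -0.06 to 0.12, edgeR adjusted p = 0.69). With the GC offset, BIRC3 was called higher, with a log2 fold change of 0.19 (adjusted p = 0.0052).

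Summed over NFKB1, NFKB2, RELA and RELB, the level with AP001189.3 was 193 ± 2.39 RPKM (SD, n = 3), above the control range of 155 to 169 RPKM.

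The plasmids for the lncRNAs were then compared directly, without the control libraries. All 10 genes were lower with LINC00996 than with AP001189.3, where 12.1% of 16095 genes tested were called lower and 9.38% higher (21.4% in all). Scaled by library size alone, 2129 genes were higher and 1667 lower, and all 10 were still called lower. In none of the 10 did the groups overlap, and over all genes 39.2% had no overlap. TRAF1 differed the most, with a mean of 14.0 ± 2.56 CPM against 51.6 ± 4.90 CPM (SD, n = 3 each), or 27.0%. TNFAIP3 stood at 153 ± 7.91 CPM against 467 ± 19.1 CPM (SD, n = 3 each), a log2 difference of -1.62 (SE 0.08, edgeR adjusted p = 4.7e-07). BIRC3 followed with a log2 difference of -1.47 (SE 0.13). NFKB1 differed the least, with -0.71 (SE 0.08, edgeR adjusted p = 0.00014). RELB and NFKBIA, the genes with the weakest calls for LINC00996 against control, had log2 differences of -0.92 (SE 0.10) and -0.94 (SE 0.10) here. All 10 calls were made in each of the 14 alternatives.

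**Figure D3:**
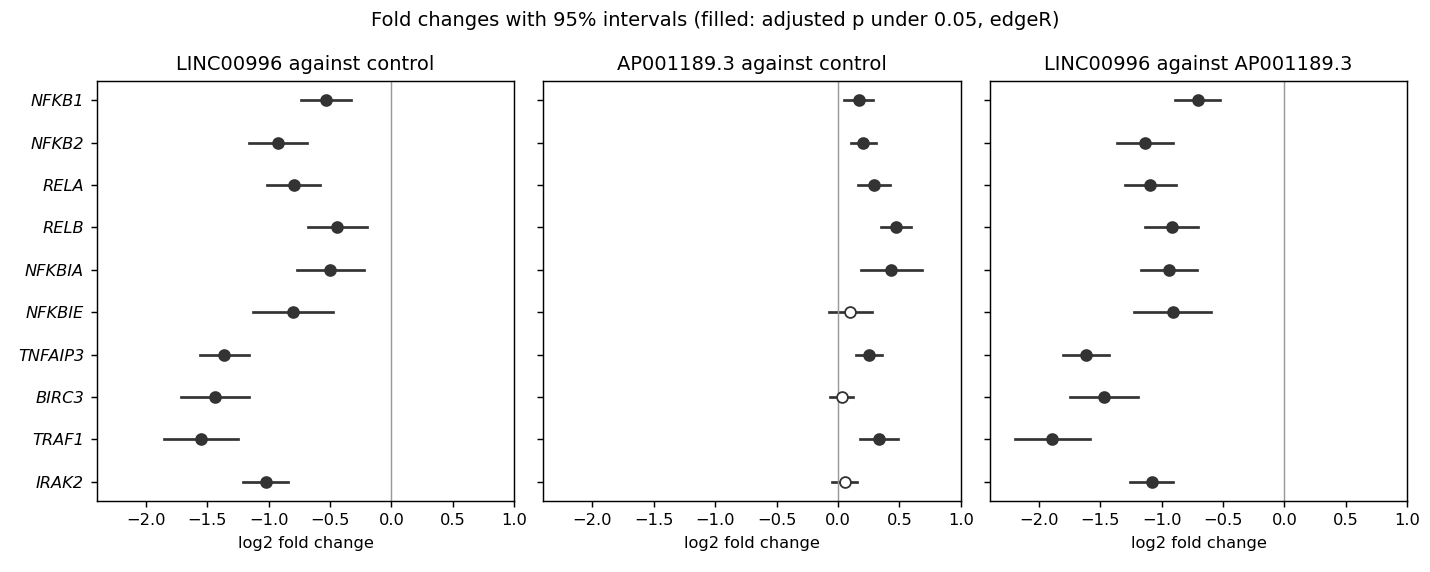
Log2 fold change of the 10 genes in the 3 comparisons, as points with 95% intervals, where filled points passed an adjusted p under 0.05 and open points did not. The intervals of all 10 genes lie below 0 in both comparisons that involve LINC00996, while with AP001189.3 against control the open points of NFKBIE, BIRC3 and IRAK2 have intervals that include 0.

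Ratios between genes within a library cancel the scaling of that library, and they were read as descriptions without a test. They are given as log2 ratios of RPKM. TNFAIP3 over NFKBIA, 2 inhibitors that act at different steps, stood at -0.66 ± 0.14 (SD, n = 3) in the control group, -1.52 ± 0.22 with LINC00996 and -0.85 ± 0.03 with AP001189.3. The LINC00996 libraries were the lowest in this ratio, and all 3 groups were free of overlap. BIRC3 over its paralog BIRC2 stood at 2.23 ± 0.08 in the control group, 1.38 ± 0.03 with LINC00996 and 2.26 ± 0.10 with AP001189.3. The LINC00996 replicates lay between 1.35 and 1.41, far from every other library.

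Among the subunits, RELB over RELA was -0.35 ± 0.19 in the control group, 0.00 ± 0.10 with LINC00996 and -0.17 ± 0.16 with AP001189.3. The LINC00996 range lay just above the control range and overlapped that of AP001189.3. NFKB2 over NFKB1 was 2.14 ± 0.03, 1.74 ± 0.23 and 2.18 ± 0.08 in the same order. Here LINC00996 replicate 1 had 2.01 and the other LINC00996 replicates 1.61 each. NFKBIA over RELA was higher with LINC00996 (1.96 to 2.15) than in any control library (1.67 to 1.87), and the AP001189.3 libraries (1.86 to 2.02) overlapped both.

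**Figure D4:**
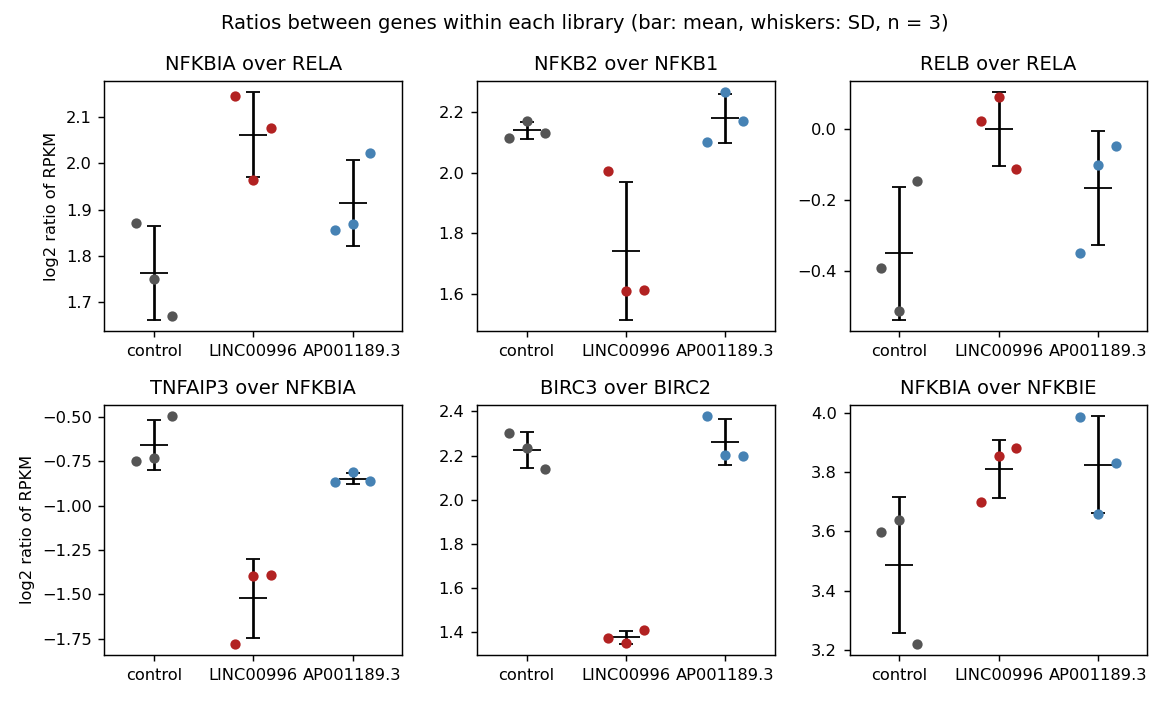
Log2 ratio of RPKM between pairs of genes within each library, for the control (gray), LINC00996 (red) and AP001189.3 (blue) groups; bars are means and whiskers SDs of 3 libraries, and the axes do not start at 0. The ratios of TNFAIP3 over NFKBIA and of BIRC3 over BIRC2 are lowest in the 3 LINC00996 libraries.

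REL, the remaining subunit, was far less abundant than the other subunits and took 1.70 ± 0.17% (SD, n = 3) of the summed subunit RPKM in the control group. It had 34.3, 39.0 and 35.4 CPM in the control libraries, 21.9, 24.6 and 24.6 CPM with LINC00996 and 32.1, 26.7 and 29.8 CPM with AP001189.3. Both plasmid groups were below every control library. REL fell by 0.61 on the log2 scale with LINC00996 (SE 0.11, edgeR adjusted p = 0.0023). With AP001189.3 it fell by 0.29 (SE 0.09, edgeR adjusted p = 0.015), where RELA and RELB were higher, but this call was lost in 5 of 14 alternatives, among them the GC offset and the gene-length offset. NFKB2 held the largest share of the summed RPKM in every group, with 47.8 ± 0.27% in the control group, 42.3 ± 2.15% with LINC00996 and 46.0 ± 1.52% with AP001189.3.

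Of the other IkB genes, NFKBIZ, which encodes a nuclear IkB protein, had 183, 183 and 184 CPM in the control libraries and 91.7, 102 and 102 CPM with LINC00996. It fell by 0.89 on the log2 scale (SE 0.09, edgeR adjusted p = 3.7e-05), and with AP001189.3 its log2 fold change of 0.09 did not pass (adjusted p = 0.21). BCL3, a nuclear partner of p50 and p52, did not pass with LINC00996 (log2 fold change 0.16, 95% interval -0.09 to 0.40). It was higher with AP001189.3, at 209, 193 and 207 CPM against 170, 159 and 142 CPM in the control group (log2 fold change 0.37, SE 0.06, edgeR adjusted p = 8.7e-05), but not with the GC offset. NFKBIB, which encodes IkB-beta, likewise did not pass with LINC00996 (0.18, 95% interval -0.17 to 0.53) and was higher with AP001189.3 (0.28, edgeR adjusted p = 0.0036), a call also lost with the GC offset. NFKBID passed in neither comparison, with log2 fold changes of -0.03 and 0.31.

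The rest of the pathway was read from 5 further lists, whose counts stand beside 11.6% of all genes lower and 10.7% higher with LINC00996, and 8.49% lower and 11.4% higher with AP001189.3, each against control. Of 11 genes of the IkB kinase complex and related kinases, 4 fell with LINC00996 and 7 did not pass, with a median log2 fold change of -0.25. IKBKE, a kinase related to the IkB kinases, fell by 0.98, and MAP3K8, a kinase bound by p105, by 0.71 (edgeR adjusted p = 0.00015 and 0.00028). With AP001189.3, 2 of the 11 were called higher, MAP3K14 and MAP3K8, a count too small to set apart from the share over all genes. MAP3K14, the NF-kB-inducing kinase that triggers p100 processing, rose by 0.35 on the log2 scale (edgeR adjusted p = 0.0025), while MAP3K8 was called in 4 of 14 alternatives only.

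Of 31 adaptors and ubiquitin enzymes, 11 fell and none rose with LINC00996, and 11 rose and 4 fell with AP001189.3. TNIP1, which encodes a partner of A20, fell by 0.93 on the log2 scale with LINC00996, ZC3H12A, a ribonuclease that degrades inflammatory mRNA, by 0.65, and the deubiquitinase gene CYLD by 0.65. With AP001189.3, MYD88, the adaptor of Toll-like and interleukin-1 receptors, rose by 0.40 (edgeR adjusted p = 1.9e-06). It was called in all 14 alternatives there, and it fell by 0.37 with LINC00996 (adjusted p = 0.0096), a call lost without control replicate 2 or 3 or LINC00996 replicate 2. TRAF2, which recruits cIAP proteins, rose by 0.35 with AP001189.3 and by 0.19 to 0.39 in the alternatives. RBCK1, a subunit of the linear ubiquitin ligase, rose by 0.33 and by 0.12 to 0.36 in the alternatives. The call of RBCK1 was lost with the GC offset.

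Of 17 upstream receptors, 10 fell with LINC00996 and none rose. TNFRSF1B, which encodes TNF receptor type II, went from 57.6, 50.7 and 44.6 CPM in the control group to 9.47, 6.66 and 8.55 CPM with LINC00996. It fell by 2.63 on the log2 scale (SE 0.15, edgeR adjusted p = 9.5e-07), further than any of the 10 genes above. CD40 fell by 1.48 and TNFRSF9 by 1.37. With AP001189.3, the receptors were called about as often as all genes, with 2 of the 17 higher and 1 lower. TNFRSF12A rose by 0.49 on the log2 scale (0.29 to 0.53 in the alternatives) and TNFRSF10A by 0.27. TLR5, which had 1.09 to 3.62 CPM in these groups, fell by 0.96. The call of TNFRSF10A was lost without control replicate 1 or AP001189.3 replicate 1, and that of TLR5 without control replicate 3 or AP001189.3 replicate 2 or 3.

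Of 9 upstream ligands, LTA was too low to be tested. Of the other 8, 6 fell and none rose with LINC00996, with a median log2 fold change of -1.30. TNFSF15, at 0.26, was called higher in 3 of 14 alternatives, with the gene-length offset, with the GC offset and without LINC00996 replicate 1. TNFSF10 (TRAIL) fell by 1.63, TNFSF13B (BAFF) by 1.72 and IL1A by 1.58. With AP001189.3, 4 of the 8 rose and 1 fell. LTB, a chain of the lymphotoxin ligand of the slower branch, rose from 8.53, 7.90 and 7.88 CPM to 17.0, 16.1 and 12.9 CPM (log2 fold change 0.92, SE 0.13, edgeR adjusted p = 9.7e-06). TNFSF10 rose by 0.31, and TNFSF15 fell by 0.46.

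Of 28 effector targets, 22 fell and 1 rose with LINC00996, with a median log2 fold change of -0.90, close to the -0.86 of the 10 genes. C3, the central complement component, fell by 1.19, the chemokine gene CCL20 by 1.56 and CSF1, the macrophage growth factor, by 1.13. The 1 that rose was GADD45B, by 0.55 (SE 0.16, edgeR adjusted p = 0.026), a call lost without control replicate 2 or 3. With AP001189.3, 9 rose and 3 fell. C3 was among those that fell, by 0.19 (edgeR adjusted p = 0.011), and was called lower in 9 of 14 alternatives. GADD45B rose by 0.72, SAA1, an acute-phase protein gene, by 0.63 and BCL2L1, which encodes the survival protein Bcl-xL, by 0.33. Of the pathway genes named outside the 10 as changed with AP001189.3 against control, some were still called with all 9 libraries in 1 fit. These were MYD88, LTB, TNFSF15, GADD45B and SAA1. REL, NFKBIB, BCL3, MAP3K14, MAP3K8, TRAF2, RBCK1, TNFRSF12A, TNFRSF10A, TLR5, TNFSF10, BCL2L1 and C3 were not. When LINC00996 was compared with AP001189.3 directly, 25 of the 28 targets, 10 of the 17 receptors and 7 of the 8 ligands were lower, and TNFSF15 was the 1 ligand that was higher, beside 12.1% lower and 9.38% higher over all genes.

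**Figure D5:**
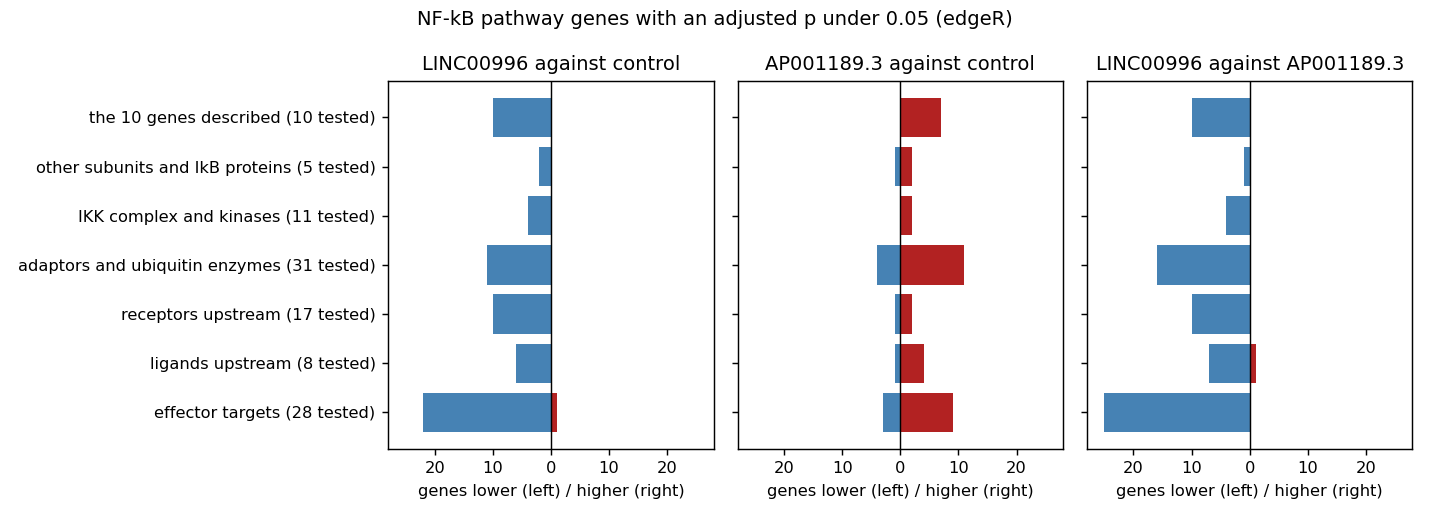
Number of genes lower (blue, to the left) and higher (red, to the right) at an adjusted p under 0.05 in each list of the NF-kB pathway, for the 3 comparisons, with the number tested beside each list. With LINC00996 nearly all called genes lie to the left in both comparisons, with 22 of 28 effector targets lower than control, while with AP001189.3 most called genes lie to the right.

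The genes whose levels ran most like the 10 genes were found by the Pearson correlation of log2 CPM over the 9 libraries with the mean of the centred values of the 10, among 14617 other genes that averaged 1 CPM or more. The libraries fall into 3 groups, so the correlation mostly reflects the group means, and it is a description. The mean of the 10 was 0.19 to 0.32 in the control libraries, -0.76 to -0.62 with LINC00996 and 0.46 to 0.49 with AP001189.3 on the centred log2 scale. CSF1 was the most alike (r = 0.997), with mean levels of 245, 112 and 284 CPM in the control, LINC00996 and AP001189.3 groups. SDC4, which encodes the cell-surface proteoglycan syndecan-4, followed with 308, 141 and 360.4 CPM (r = 0.996), and ACHE, the acetylcholinesterase gene, with 10.8, 3.08 and 14.9 CPM (r = 0.996). RHBDF2, which encodes the pseudoprotease iRhom2 needed for the release of TNF, had 191, 95.5 and 217 CPM (r = 0.996). TMEM173, which encodes the innate immune adaptor STING, had 12.0, 3.92 and 14.7 CPM (r = 0.995).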

How the data were processed

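The authors aligned 150 bp reads with HISAT2 2.0.5 and deposited raw counts per gene from featureCounts 1.5.0-p3, as their processing notes and supplementary methods state. Whether counting used strand is not given in the sources used here. Deposited gene coordinates equal GENCODE 29 (GRCh38) for 58724 of 58735 genes. All 9 count columns were used. The deposited FPKM values and the columns of the authors' own comparisons (fold changes and p-values) were not used.

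Each comparison was fitted over its own 6 libraries in R 4.3.3 by edgeR 4.0.16 (filterByExpr, TMM normalization, robust quasi-likelihood test), and p-values were Benjamini-Hochberg adjusted over all genes tested. The SE is the absolute log2 fold change over the square root of F. CPM used TMM factors of all 9 libraries, log2 CPM a prior count of 2, and RPKM the deposited gene length. GC content came from the longest GENCODE 29 transcript. The procedure was tested on simulated data.

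As alternatives, all 9 libraries were put in 1 fit, DESeq2 1.42.0 was used, scaling was by library size alone, the filter on low counts was dropped or set to 10 counts in every library, and the fit had a replicate block, a gene-length offset or each library left out. A GC-content offset (loess, span 0.75) was added after the data were seen. The 10 genes, the pathway lists and the markers were chosen with earlier results of these data known. The text names all 10, every gene of the list of other subunits and IkB proteins, up to 3 genes of each further list with the smallest adjusted p in each comparison with control, and the 5 genes with the most similar levels. SDs are over 3 libraries.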

Additional observations from a re-analysis of the deposited data

How the results depend on the processing

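No fold change called in the full fits, of the 10 genes or of the pathway genes named by the rule, changed sign in the alternatives. Of those not called, NFKBIE with AP001189.3 against control went from 0.10 to -0.05 with the GC offset. TNFRSF12A with LINC00996 against control went from 0.21 to -0.26 without LINC00996 replicate 1, where it was called lower. Further genes not called, among them NFKBIB, NFKBID and LTB with LINC00996 against control, also changed sign in some alternatives. Leaving out 1 library at a time gave 8 to 10 of the 10 genes called with LINC00996 against control and 4 to 7 with AP001189.3 against control, the 4 without control replicate 2. All 10 were called with LINC00996 against AP001189.3 in every alternative. With all 9 libraries in 1 fit, 2 of the 10 were called with AP001189.3 against control, and 437 of all genes in place of 3180. With the GC offset, 5975 of all genes in place of 3588 were called with LINC00996 against control and 5761 in place of 3452 with LINC00996 against AP001189.3.

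Leaving out 1 library at a time, the count over all genes ranged from 1925 to 5481 with LINC00996 against control, from 1914 to 3598 with AP001189.3 against control and from 1840 to 6828 with LINC00996 against AP001189.3. The highest counts in both LINC00996 comparisons came without LINC00996 replicate 1. Counts over all genes fell by over 1.5 times without any 1 control replicate in the first comparison, without control replicate 2 or AP001189.3 replicate 2 in the next, and without LINC00996 replicate 2 or any 1 AP001189.3 replicate in the last. Genes called in the pathway lists ranged from 45 to 76, from 25 (without AP001189.3 replicate 2) to 39 and from 51 to 84 in the same order, where the full fits gave 56, 40 and 64. With the GC offset, 6 genes of these lists were higher and 72 lower with LINC00996 against control, where the full fit gave 1 and 55. The cause of these shifts was not tested. Library size alone as scaling turned round which direction held more of all genes called. It gave 2006 higher and 1669 lower with LINC00996 against control (TMM, 1722 and 1866), 1608 and 1719 with AP001189.3 against control (TMM, 1819 and 1361), and 2129 and 1667 with LINC00996 against AP001189.3 (TMM, 1510 and 1942).

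Same-numbered libraries of different groups did not all deviate together, with correlations of 0.148, 0.022 and 0.088 between LINC00996 and control. The correlations were 0.058, -0.02 and 0.032 between AP001189.3 and control, and 0.082, 0.005 and 0.052 between LINC00996 and AP001189.3. Differently numbered libraries had -0.124 to 0.042, -0.055 to 0.024 and -0.073 to 0.026 in the same order. Replicates 1 and 3 were above these ranges and replicate 2 within them. Whether same-numbered libraries were handled together is not given by the labels and was not tested. With the replicate number as a block, 10, 7 and 10 of the 10 genes were called in the 3 comparisons, with 4500, 3466 and 3772 of all genes and 60, 44 and 68 of the pathway lists. Over 10 genes and 14 alternatives, 135 of 140 values with LINC00996 against control stayed on their side of the threshold, 120 with AP001189.3 against control and 140 with LINC00996 against AP001189.3. TLR5 rested on 18 to 63 counts a library, the fewest of the genes named as changed.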
